A study of Mus musculus with 16 samples.

Results

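The folliculin complex, the RagC and RagD GTPases, the TFEB-type transcription factors and their coactivator PGC-1α are described here through 9 genes of mouse sciatic nerve: *Flcn*, *Fnip1*, *Fnip2*, *Rragc*, *Rragd*, *Tfeb*, *Tfe3*, *Tfec* and *Ppargc1a*. They were chosen by name, with earlier results of these arrays known, from the 19505 genes that carry a symbol on the array, and where a gene had several transcript clusters (the sets of probes that are read as 1 value) the cluster with the highest mean over all arrays was to be used. Each of the 9 genes had 1 cluster, so no measured value decided between clusters. Total RNA of whole sciatic nerve was hybridized to 16 Clariom S arrays, 4 in each of 4 groups. The wild-type groups, dissected at 10 days after birth (P10) and at 2 months, are the control mice of the study, which carried *Becn1* fl/fl or *Becn1* fl/+ alleles without Cre. The cKO groups of the same ages were *Becn1* fl/fl mice with a Cre transgene active in Schwann cells, so that Beclin 1 was deleted in these cells while the axons, fibroblasts, vessels and immune cells of the nerve kept it. The comparison asks how the loss of Beclin 1 in Schwann cells changes transcript levels in the growing and in the adult nerve. The labels do not say whether the 4 samples of a group are 4 animals, and the p-values measure the spread between these samples.

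At the surface of the lysosome, RagA or RagB pairs with RagC or RagD, and the pair recruits mTORC1 when amino acids are plentiful. Folliculin, bound to a folliculin-interacting protein (FNIP1 or FNIP2), is the GTPase-activating protein for RagC and RagD. The GDP-bound form of these GTPases presents TFEB and TFE3 to mTORC1, which phosphorylates them and keeps them in the cytoplasm. When that phosphorylation is lost, TFEB and TFE3 enter the nucleus and switch on genes of lysosomes and autophagy. *Flcn*, *Rragc*, *Rragd* and *Ppargc1a* have themselves been described as targets of this family of factors, which also holds TFEC and MITF. Beclin 1 is a subunit of the class III PI3-kinase, which makes the lipid PI3P for autophagosomes and endosomes. A transcript level does not show the phosphorylation or the place in the cell of any of these proteins.

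TFEB, TFE3 and MITF bind short palindromic sites in promoters, and the upstream sequences of the members that hold such letters are shown here because the same members are described below by their transcript levels. The spellings searched, on both strands, were 3, in windows that run from 250 bases before to 50 bases after each start site in RefSeq (mouse build GRCm38.p6). They were CACGTG (the E-box), TCACGTG (the core of the CLEAR element, which contains the E-box) and TCATGTG (a core of the M-box). All 9 genes had an entry, with 12 promoters between them. CACGTG was present at 2 of the 9 genes, *Rragc* and *Fnip1*, against 2349 of all 32851 promoters (7.15%). At both genes it was extended to TCACGTG on the minus strand, a spelling found in 1237 of all promoters (3.77%). *Ppargc1a* held TCATGTG, again on the minus strand of the gene, as did 1239 of all promoters (3.77%). The 250 bases before each start are printed 5′ to 3′ on the strand of the gene, with the match in capitals. The capitals thus read CACGTGA for TCACGTG and CACATGA for TCATGTG.
Rragc, chr4:123917183-123917432, plus strand: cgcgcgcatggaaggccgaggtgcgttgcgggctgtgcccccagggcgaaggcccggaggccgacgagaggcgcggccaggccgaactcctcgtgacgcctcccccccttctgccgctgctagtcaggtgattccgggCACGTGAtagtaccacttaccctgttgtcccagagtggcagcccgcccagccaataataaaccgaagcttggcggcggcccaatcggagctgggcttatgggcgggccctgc
Fnip1, chr11:54437929-54438178, plus strand: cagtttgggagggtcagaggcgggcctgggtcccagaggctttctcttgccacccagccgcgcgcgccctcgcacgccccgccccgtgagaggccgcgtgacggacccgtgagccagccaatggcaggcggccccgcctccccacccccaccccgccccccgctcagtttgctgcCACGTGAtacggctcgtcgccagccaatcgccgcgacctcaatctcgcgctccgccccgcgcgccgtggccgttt
Ppargc1a, chr5:51567726-51567975, minus strand: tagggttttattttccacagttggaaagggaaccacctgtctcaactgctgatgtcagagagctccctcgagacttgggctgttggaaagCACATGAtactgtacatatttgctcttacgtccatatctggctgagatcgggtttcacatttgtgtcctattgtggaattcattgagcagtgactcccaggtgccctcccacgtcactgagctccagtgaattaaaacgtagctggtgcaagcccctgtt
The E-box of *Rragc* begins 112 bases before the start, that of *Fnip1* 75 bases before it and the match of *Ppargc1a* 160 bases before it. The windows of *Flcn*, *Fnip2*, *Rragd*, *Tfeb*, *Tfe3* and *Tfec* hold none of the 3 spellings, which says only that these letters are not there. Among 25 genes of a list of known TFEB and TFE3 targets that have an entry, 12 held CACGTG, 11 TCACGTG and 4 TCATGTG. Counted by promoter, as for all promoters, these were 12, 11 and 4 of 29, and for the 9 genes 2, 2 and 1 of 12. Known targets can have been named for holding such sites, so nothing is drawn from their share. A match is a description of the sequence and not a binding site.

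*Becn1* itself was lower in the cKO nerves at both ages. At P10 its mean log2 level was 8.61 ± 0.09 (SD, n = 4) in wild-type and 8.26 ± 0.11 in cKO nerves, and at 2 months it was 8.45 ± 0.07 and 8.19 ± 0.06. The log2 change was -0.35 at P10 (limma adjusted p = 0.0397) and -0.26 at 2 months (adjusted p = 0.0312), with no overlap between the groups at either age. Most fits that leave out a single array lost the call, at each age. The nerve holds cells without Cre and the place of the probes on the transcript is not known here, so this is a limited check of the labels. *Sox10*, which marks Schwann cells, was measured at 9.64 ± 0.19 and 9.97 ± 0.19 at P10 and at 8.98 ± 0.17 and 9.54 ± 0.14 at 2 months in wild-type and cKO nerves. *S100b*, another such marker, was at 8.41 ± 0.25 and 8.06 ± 0.24 at P10 and at 9.20 ± 0.27 and 8.39 ± 0.08 at 2 months. Of 5 measured markers of Schwann cells of any stage, 2 rose and 1 fell at P10 (2 and 2 without wild-type P10 replicate 4), and 3 rose and 1 fell at 2 months. Markers of the myelinating Schwann cell, 7 of 7 measured, were lower in cKO arrays at P10 and at 2 months. One array stood apart. A list of 13 skeletal muscle genes averaged 11.76 in wild-type P10 replicate 4, against 6.82 to 9.44 in the other 3 wild-type P10 arrays and 5.31 to 9.13 in the remaining 12. The P10 change of *Rragd* and the P10 list counts that moved without this array are given with and without it. Fewer cells of a type and less RNA per cell cannot be told apart in whole nerve.

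In brief, *Flcn*, *Fnip1*, *Fnip2*, *Rragc*, *Rragd* and *Ppargc1a* were all higher in cKO than in wild-type nerves, by 1.48- to 2.42-fold at P10 and by 1.88- to 3.31-fold at 2 months. The P10 value of *Rragd*, 2.27-fold, depends on wild-type P10 replicate 4: it was 3.18-fold without that array, and with it the call was lost when any 1 of the other 7 arrays was left out (limma adjusted p = 0.0517 to 0.121). *Tfeb* and *Tfec* were not called at either age, and *Tfe3* was called at 2 months, where it was 1.3-fold higher. Thus 6 of the 9 genes were called higher and 0 lower at P10, where 5.48% of all genes were called higher and 7.44% lower. At 2 months 7 were called higher and 0 lower, where 18.5% of all genes were higher, 15.5% lower and 34.0% either. The same counts were reached at an unadjusted limma p under 0.05. Of all 19505 genes, 2055 were higher and 2565 lower at that p at P10, and 4283 and 3923 at 2 months. These numbers are also the background of the unadjusted counts of the lists below. All 4 cKO arrays lay above all 4 wild-type arrays for 5 of the 9 genes at P10, as for 7.73% of all genes, and for 7 at 2 months, as for 17.8%. They lay below for 0 of the 9 at either age, against 9.14% of all genes at P10 and 15.5% at 2 months. The median log2 change of the 9 genes was 0.85 at P10 and 0.95 at 2 months, against 0.00 and -0.02 over all 19505 genes. A call stands for an adjusted p under 0.05 from limma, after Benjamini-Hochberg over all genes, levels are on the log2 scale, and a difference of 1 on this scale is 2-fold.

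**Figure D1:**
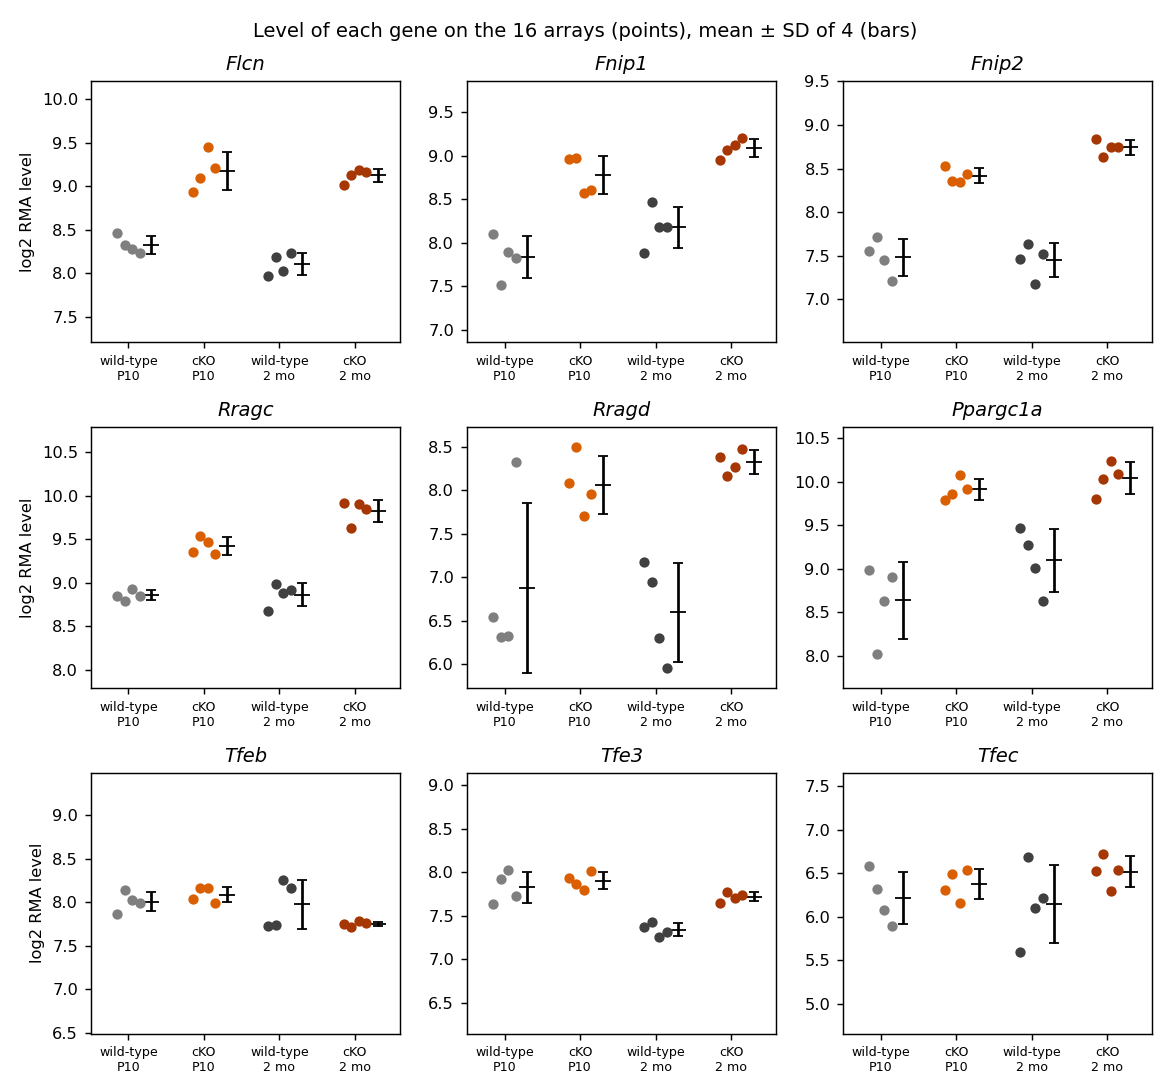
Log2 level (vertical axis, log2 RMA units) of each of the 9 genes on the 16 arrays, 1 point an array, in wild-type and cKO nerves at P10 and 2 months, with the mean and SD of 4 arrays as bars. For *Flcn*, *Fnip1*, *Fnip2*, *Rragc* and *Ppargc1a* the cKO points lie above the wild-type points of their age; the wild-type P10 point of *Rragd* at 8.33 lies among the cKO points.

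The subunits of the folliculin complex come first. *Flcn*, which encodes folliculin, read 8.46, 8.33, 8.28 and 8.23 on the wild-type P10 arrays and 8.94, 9.10, 9.45 and 9.21 on the cKO P10 arrays. At 2 months the wild-type values were 7.97, 8.19, 8.03 and 8.23 and the cKO values 9.02, 9.13, 9.19 and 9.17. Every cKO array was above every wild-type array of either age. The log2 change was 0.85 (standard error 0.12, 1.8-fold, limma adjusted p = 0.000204) at P10 and 1.03 (standard error 0.09, 2.04-fold, adjusted p = 6.63e-07) at 2 months. In order, the group means were 9.17 ± 0.22 in cKO P10, 9.13 ± 0.08 in cKO 2-month, 8.32 ± 0.10 in wild-type P10 and 8.10 ± 0.12 in wild-type 2-month nerves, and the step between the cKO groups lay within their spread.

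*Fnip1* encodes the first of the partner proteins of folliculin. In wild-type nerves it read 8.10, 7.52, 7.90 and 7.83 at P10 and 7.88, 8.47, 8.18 and 8.18 at 2 months. In cKO nerves it read 8.96, 8.97, 8.57 and 8.61 at P10 and 8.95, 9.07, 9.13 and 9.20 at 2 months. The lowest cKO array, at 8.57, lay above the highest wild-type array, at 8.47. The change was alike in size at the 2 ages, 0.94 (standard error 0.14, 1.92-fold, limma adjusted p = 0.000353) at P10 and 0.91 (standard error 0.12, 1.88-fold, adjusted p = 2.11e-05) at 2 months on the log2 scale. The interval of their difference ran from -0.43 to 0.36.

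*Fnip2*, the second partner, read 7.55, 7.71, 7.45 and 7.21 in wild-type P10 and 8.53, 8.36, 8.34 and 8.44 in cKO P10 nerves. At 2 months it read 7.46, 7.63, 7.17 and 7.52 in wild-type and 8.84, 8.63, 8.75 and 8.75 in cKO nerves. The wild-type means of the 2 ages, 7.48 ± 0.21 and 7.45 ± 0.20, lay within their spread, whereas the 4 cKO arrays of 2 months were above the 4 of P10. *Fnip2* rose by 0.94 (standard error 0.12, 1.92-fold, limma adjusted p = 9.87e-05) at P10 and by 1.30 (standard error 0.11, 2.46-fold, adjusted p = 3.13e-07) at 2 months. The difference of these 2 changes was 0.36 with an interval of 0.02 to 0.70, and it was not called (adjusted p = 0.166).

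*Rragc* encodes RagC, the GTPase on which the folliculin complex acts. Its levels were 8.85, 8.79, 8.93 and 8.85 in wild-type P10, 9.35, 9.54, 9.47 and 9.33 in cKO P10, 8.67, 8.98, 8.88 and 8.92 in wild-type 2-month and 9.91, 9.63, 9.90 and 9.85 in cKO 2-month nerves. The 3 steps of this gene could be seen without overlap, with both wild-type groups at a mean of 8.86, the cKO P10 group at 9.42 ± 0.10 and the cKO 2-month group at 9.82 ± 0.13. The log2 change was 0.57 (standard error 0.10, 1.48-fold, limma adjusted p = 0.00112) at P10 and 0.96 (standard error 0.10, 1.94-fold, adjusted p = 2.08e-06) at 2 months. The larger change at 2 months, by 0.39 (interval 0.12 to 0.67), missed the threshold (adjusted p = 0.0561). It passed when only the 5000 most variable transcript clusters were tested (adjusted p = 0.0364), when dim genes were left out (0.0442), with array weights (0.0473) and without cKO 2-month replicate 2 (0.0315). The other 5 alternatives did not call it, with limma adjusted p up to 0.169. Nor did 15 of the 16 fits that left out 1 array, with adjusted p up to 0.112.

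*Rragd* encodes RagD, the close relative of RagC, and had the widest range of group means among the 9 genes, 1.73. On the wild-type P10 arrays it read 6.54, 6.31, 6.33 and 8.33, and on the cKO P10 arrays 8.08, 8.50, 7.71 and 7.96. The fourth wild-type array thus lay above 3 of the 4 cKO arrays, while the others were all below them. This is the array with the muscle gene mean of 11.76, and the part of muscle RNA in its *Rragd* value was not tested. Over all arrays the log2 change at P10 was 1.19 (standard error 0.35, 2.27-fold, limma adjusted p = 0.038). Without wild-type P10 replicate 4 the wild-type mean was 6.39 ± 0.13 (n = 3) and the change 1.67 (standard error 0.17, 3.18-fold, adjusted p = 5.53e-06). With that array kept, leaving out any 1 of the other 7 gave changes of 1.00 to 1.30 and lost the call, with adjusted p from 0.0517 to 0.121.

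At 2 months the muscle gene mean was 5.66 to 7.13 in wild-type and 5.31 to 7.41 in cKO nerves. *Rragd* then read 7.18, 6.95, 6.30 and 5.96 in wild-type and 8.38, 8.16, 8.27 and 8.48 in cKO nerves, without overlap. The change was 1.73 on the log2 scale (standard error 0.21, 3.31-fold, limma adjusted p = 1.17e-05), and it ran from 1.51 to 1.92 when 1 array was left out. The cKO P10 arrays, with muscle gene means of 7.67, 9.10, 6.09 and 9.13, read 8.08, 8.50, 7.71 and 7.96 for *Rragd* in the same order. The cKO groups, at 8.06 ± 0.33 and 8.32 ± 0.14, did not differ beyond their spread, nor did the wild-type groups, at 6.88 ± 0.97 and 6.60 ± 0.57.

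**Figure D2:**
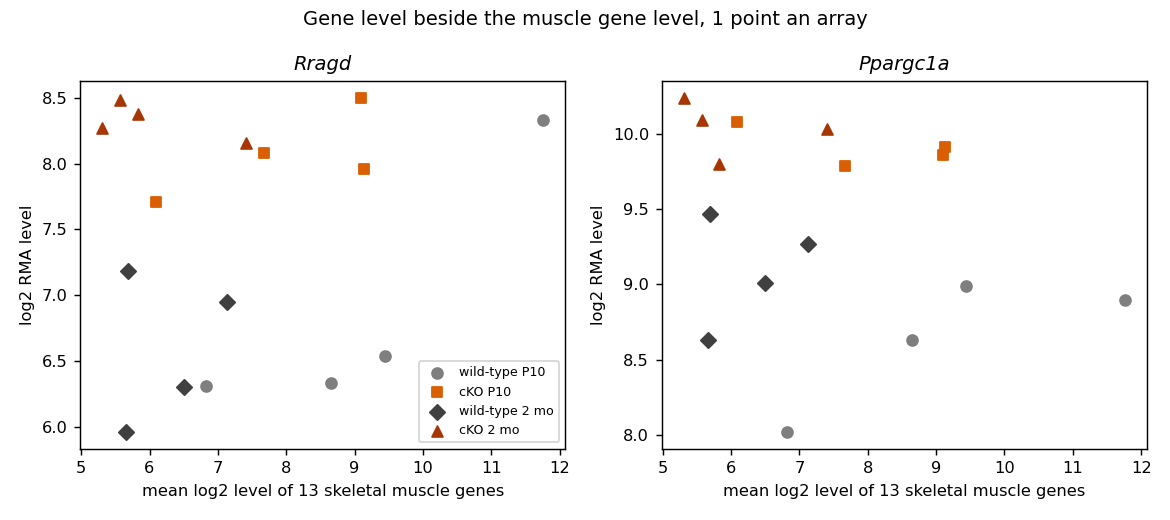
Log2 level of *Rragd* (left) and *Ppargc1a* (right) on the vertical axes against the mean log2 level of 13 skeletal muscle genes on the horizontal axes, 1 point an array, with symbols for the 4 groups. The wild-type P10 array at a muscle mean of 11.76 has *Rragd* at 8.33 and *Ppargc1a* at 8.90. The cKO 2-month arrays, at muscle means of 5.31 to 7.41, have *Rragd* at 8.16 to 8.48.

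The transcription factors changed little or not at all by the test. *Tfeb*, the factor after which the group is usually named, read 7.87 to 8.14 in wild-type P10, 7.99 to 8.16 in cKO P10, 7.73 to 8.26 in wild-type 2-month and 7.72 to 7.78 in cKO 2-month nerves. The groups overlapped at both ages. Its log2 change was 0.08 at P10 (interval -0.15 to 0.31, limma adjusted p = 0.727) and -0.22 at 2 months (interval -0.49 to 0.05, adjusted p = 0.203). The wild-type 2-month arrays fell into a pair at 7.73 and 7.74 and a pair at 8.26 and 8.17, while the SD of the cKO 2-month arrays was 0.02.

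*Tfe3* encodes a factor that acts alongside TFEB and lies on the X chromosome. At P10 it read 7.64, 7.92, 8.03 and 7.73 in wild-type and 7.93, 7.87, 7.80 and 8.02 in cKO nerves, which overlapped. At 2 months it read 7.37, 7.43, 7.26 and 7.31 in wild-type and 7.65, 7.77, 7.71 and 7.74 in cKO nerves, which did not. The log2 change was 0.08 (interval -0.18 to 0.33, limma adjusted p = 0.774) at P10 and 0.38 (standard error 0.09, 1.3-fold, adjusted p = 0.00582) at 2 months. The difference of the 2 changes, 0.30, was not called (adjusted p = 0.189), so that an effect of age on the cKO change of *Tfe3* is not shown. The 2-month value held in each fit that left out 1 array, from 0.35 to 0.40.

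*Tfec*, a member of the family known from macrophages, read 5.89 to 6.58 in wild-type P10, 6.16 to 6.54 in cKO P10, 5.59 to 6.69 in wild-type 2-month and 6.29 to 6.72 in cKO 2-month nerves. Its groups overlapped at both ages, with log2 changes of 0.16 (limma adjusted p = 0.629) and 0.37 (adjusted p = 0.155). The interval at 2 months was -0.03 to 0.77. Without wild-type 2-month replicate 2, which read 6.69, the change at 2 months was 0.55 (adjusted p = 0.0221). The other 7 fits that left out 1 array did not call *Tfec*, with changes down to 0.18 and limma adjusted p up to 0.419. *Mitf*, the remaining factor of the family and no member of the 9, had negative changes, of which only that at 2 months was called. It was at 8.24 ± 0.21 in wild-type and 7.97 ± 0.32 in cKO nerves at the earlier age (change of -0.27, adjusted p = 0.349), and it fell by 0.69 at 2 months, from 8.73 ± 0.10 to 8.03 ± 0.17 (limma adjusted p = 9.35e-05). *Tyrp1*, a pigment enzyme gene that MITF is known to switch on, was at 5.02 ± 0.84 and 12.68 ± 0.05 at P10 and at 8.81 ± 3.06 and 13.26 ± 0.05 at 2 months in wild-type and cKO nerves. Of 7 pigment-cell markers, *Tyrp1* included, 3 rose at both ages. *Pmel*, a gene of the pigment granule, was at 6.49 ± 0.26 and 11.28 ± 0.22 at P10 and at 6.57 ± 1.05 and 10.81 ± 0.39 at 2 months. *Dct*, a pigment enzyme gene, was at 5.45 ± 0.39 and 8.49 ± 0.20 and at 5.73 ± 0.26 and 7.11 ± 0.47. *Mlana* and *Tyr* had means of 4.93 to 5.20 and 3.92 to 4.31 over the 4 groups, and the part of pigment-cell RNA in the values of the 9 genes was not tested.

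*Ppargc1a* encodes PGC-1α, the coactivator of mitochondrial and oxidative genes. It read 8.99, 8.02, 8.63 and 8.90 in wild-type P10 and 9.79, 9.86, 10.08 and 9.91 in cKO P10 nerves, and 9.47, 9.27, 9.01 and 8.63 in wild-type 2-month and 9.80, 10.03, 10.24 and 10.09 in cKO 2-month nerves. All 8 cKO arrays lay above all 8 wild-type arrays. The log2 change was 1.27 (standard error 0.17, 2.42-fold, limma adjusted p = 0.000145) at P10 and 0.95 (standard error 0.15, 1.93-fold, adjusted p = 0.000155) at 2 months, and their difference of -0.33 was not called (interval -0.85 to 0.19, adjusted p = 0.459). The array rich in muscle RNA read 8.90, within the range of the other wild-type arrays, and without it the P10 change was 1.36 (adjusted p = 6.77e-05).

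**Figure D3:**
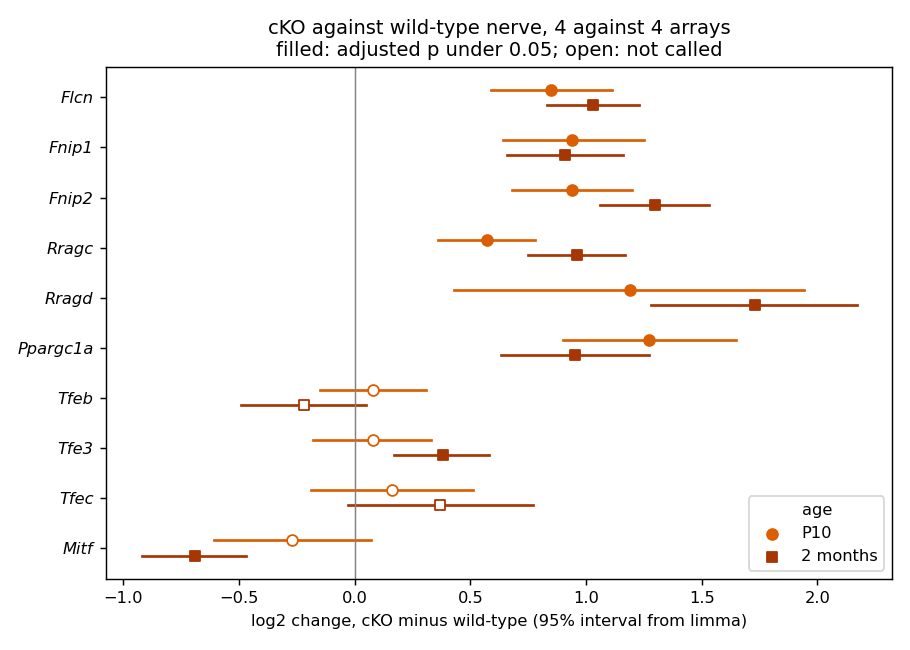
Log2 change in cKO against wild-type nerve (horizontal axis, with the 95% interval from limma) for the 9 genes and *Mitf*, circles for P10 and squares for 2 months, filled where the adjusted p was under 0.05. The 6 genes above *Tfeb* have intervals above 0 at both ages, *Tfe3* at 2 months only, and the square of *Mitf* lies below 0.

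The change of the cKO effect between the ages was called for 0 of the 9 genes by limma, where 12.3% of all genes were called, 7.69% towards a higher and 4.59% towards a lower change at 2 months, and 3 of the 9 reached an unadjusted p under 0.05, all towards a larger change at 2 months. These were *Fnip2*, *Rragc* and *Tfe3*. Of all 19505 genes, 2799 reached that unadjusted limma p towards a higher and 2183 towards a lower change at 2 months. In wild-type nerve alone, 1 of the 9 genes was called between P10 and 2 months, where 29.0% of all genes were called. It was *Tfe3*, which fell by 0.49 on the log2 scale, from 7.83 ± 0.18 to 7.34 ± 0.07 (limma adjusted p = 0.000765). *Fnip1* (0.34, adjusted p = 0.0635) and *Ppargc1a* (0.46, adjusted p = 0.0577) had an adjusted p just above 0.05 and were called once each array was centred on its median (adjusted p = 0.0486 and 0.0488). *Ppargc1a* was also called in 3 of the 16 fits that left out 1 array, among them that without wild-type P10 replicate 4 (0.55, limma adjusted p = 0.0312). Of 13 muscle genes, 11 fell with age in wild-type nerve, and their part in these values was not tested.

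In cKO nerve, 3 of the 9 genes were called between the ages, where 29.9% of all genes were. *Rragc* rose by 0.40 (limma adjusted p = 0.00222) and *Fnip2* by 0.32 (adjusted p = 0.0364), and *Tfeb* fell by 0.33, from 8.09 ± 0.08 to 7.75 ± 0.02 (adjusted p = 0.0324). Leaving out any 1 of cKO P10 replicates 2, 3 and 4 or cKO 2-month replicates 1, 3 and 4 lost the call of *Fnip2*, with adjusted p of 0.0549 to 0.096, as did a further quantile normalization (0.107). The call of *Tfeb* was lost without cKO P10 replicates 2 or 3 or any cKO 2-month array, with adjusted p of 0.0566 to 0.0805. The age comparisons share their arrays with the genotype comparisons and are not independent of them.

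Other cell types of the nerve moved in part with these values. The mean of 12 macrophage genes ran from 6.88 to 7.24 in wild-type P10 and from 7.08 to 7.51 in cKO P10 arrays, and limma called 0 of the 12 at P10, with 2 higher at an unadjusted p under 0.05. At 2 months the macrophage mean was 7.67 to 8.07 in wild-type and 8.96 to 9.21 in cKO arrays, with 10 of the 12 called higher and 1 lower, and the part of macrophage RNA in the 2-month values of the 9 genes was not tested. *Adgre1*, a defining macrophage gene, was at 7.64 ± 0.24 and 7.88 ± 0.31 at P10 and at 8.10 ± 0.28 and 9.68 ± 0.04 at 2 months. Of the 13 muscle genes limma called 0 in cKO against wild-type nerve at either age, with 1 lower at an unadjusted p under 0.05 at P10 and 0 at 2 months. Their median log2 change was -1.06 at P10, or -0.31 without wild-type P10 replicate 4, and -0.20 at 2 months.

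The other subunits of the machinery to which RagC and RagD belong were counted at both ages. At P10 5.48% of all genes rose by the test and 7.44% fell, and at 2 months the shares were 18.5% and 15.5%. Of 14 measured genes of the Rag heterodimer, its Ragulator anchor and mTORC1, 0 were called higher and 1 lower at P10, with 1 higher and 2 lower at an unadjusted limma p under 0.05, and the median log2 change was 0.03. At 2 months 7 were called higher and 1 lower, with a median of 0.27. The interaction of genotype and age was called for 3 of the 14 towards a higher and 1 towards a lower change at 2 months and was not called for 10, against 7.69% and 4.59% of all genes. The Ragulator subunit genes *Lamtor3* (0.77, limma adjusted p = 1.22e-05), *Lamtor5* (0.82, adjusted p = 1.56e-05) and *Lamtor1* (0.57, adjusted p = 0.000756) were among those that rose. *Deptor*, which encodes an inhibitory partner of mTOR, had log2 changes of -0.54 at P10 (adjusted p = 0.0416, with overlap) and -2.13 at 2 months (adjusted p = 2.23e-08, without overlap). Its means were 8.87 ± 0.18 and 8.33 ± 0.37 at P10 and 9.20 ± 0.24 and 7.07 ± 0.22 at 2 months in wild-type and cKO nerves. Without wild-type P10 replicate 4 the P10 count of this list was 0 lower.

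Of 18 measured genes of the upstream regulators of the Rag and TSC branches, namely GATOR, KICSTOR, the TSC complex and the amino acid sensors, 3 rose and 2 fell at P10 (median log2 change -0.02; 5.48% and 7.44% of all genes), and 5 rose and 1 fell at 2 months (median 0.12; 18.5% and 15.5% of all genes). *Sesn3*, a sestrin gene, rose by 0.95 at P10 (limma adjusted p = 4.17e-05) and by 0.85 at 2 months (adjusted p = 4e-06). *Tsc1*, a subunit gene of the complex that restrains RHEB, rose by 0.53 and 0.41 (adjusted p = 0.00677 and 0.00338). *Depdc5*, of GATOR1, rose by 0.47 at P10 (adjusted p = 0.0175), and *Sec13* and *Wdr59*, of GATOR2, rose by 0.66 and 0.61 at 2 months (adjusted p = 0.000169 and 0.000272). *Sesn1* fell by 0.68 at P10, from 9.24 ± 0.28 to 8.56 ± 0.22 (adjusted p = 0.00562, with overlap).

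Among 12 genes whose products pair with, phosphorylate, retain or release the TFEB-type factors, limma called 0 at P10, with 1 higher and 2 lower at an unadjusted p under 0.05 and a median log2 change of -0.05. Without wild-type P10 replicate 4, 1 was called higher. At 2 months 6 rose and 1 fell, with a median of 0.26, where 18.5% of all genes rose and 15.5% fell; at P10 these shares were 5.48% and 7.44%. *Mcoln1*, the lysosomal calcium channel gene, rose by 0.82 (limma adjusted p = 3.14e-05), and *Ppp3ca*, a catalytic subunit gene of the phosphatase calcineurin, by 0.77 (adjusted p = 2.53e-05). Calcium from this channel is known to activate calcineurin, which dephosphorylates TFEB. *Ywhag*, a gene of the 14-3-3 proteins that hold the phosphorylated factors in the cytoplasm, rose by 0.39 (adjusted p = 0.00548). The gene that fell is *Mitf*.

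The 28 measured genes of the list of known TFEB and TFE3 targets, *Mcoln1* included, were mostly higher in cKO nerves. At P10 19 were higher and 0 lower at an unadjusted limma p under 0.05, where 2055 and 2565 of all 19505 genes were. After adjustment 15 rose and 0 fell, where 5.48% of all genes rose and 7.44% fell, and the median log2 change was 0.40. Without wild-type P10 replicate 4, 14 rose. At 2 months 26 rose and 1 fell, with a median of 0.72, where 18.5% of all genes rose and 15.5% fell. The exceptions, named after their values were seen, are the autophagy gene *Wipi1*, which fell by 0.32 (adjusted p = 0.0257), and *Uvrag*, which was not called. *Sqstm1*, encoding the autophagy receptor p62, went from 9.82 ± 0.13 to 10.99 ± 0.24 at P10 and from 9.78 ± 0.20 to 11.20 ± 0.04 at 2 months (log2 changes 1.17 and 1.43, limma adjusted p = 1.81e-05 and 5.2e-08).

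The lysosomal enzyme gene *Hexa* rose by 1.18 and 1.78 (limma adjusted p = 4.47e-05 and 3.14e-09). *Scpep1*, a serine carboxypeptidase gene, rose by 0.96 at P10 (adjusted p = 2.86e-05) and by 1.07 at 2 months (adjusted p = 1.55e-06). *Gla*, the α-galactosidase gene, and *Tpp1*, a lysosomal peptidase gene, rose by 1.70 and 1.24 at 2 months (adjusted p = 1.11e-08 and 6.93e-08). At P10 they rose by 0.85 and 0.77 (limma adjusted p = 0.00648 and 0.000469). *Gpnmb*, a glycoprotein gene active in pigment cells and phagocytes, had means of 5.32 ± 0.30 and 10.00 ± 0.25 at P10, a change of 4.67 (limma adjusted p = 7.14e-10), and of 8.42 ± 0.59 and 11.28 ± 0.08 at 2 months. The list holds genes that macrophages also express, and the macrophage values above apply to it at 2 months.

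**Figure D4:**
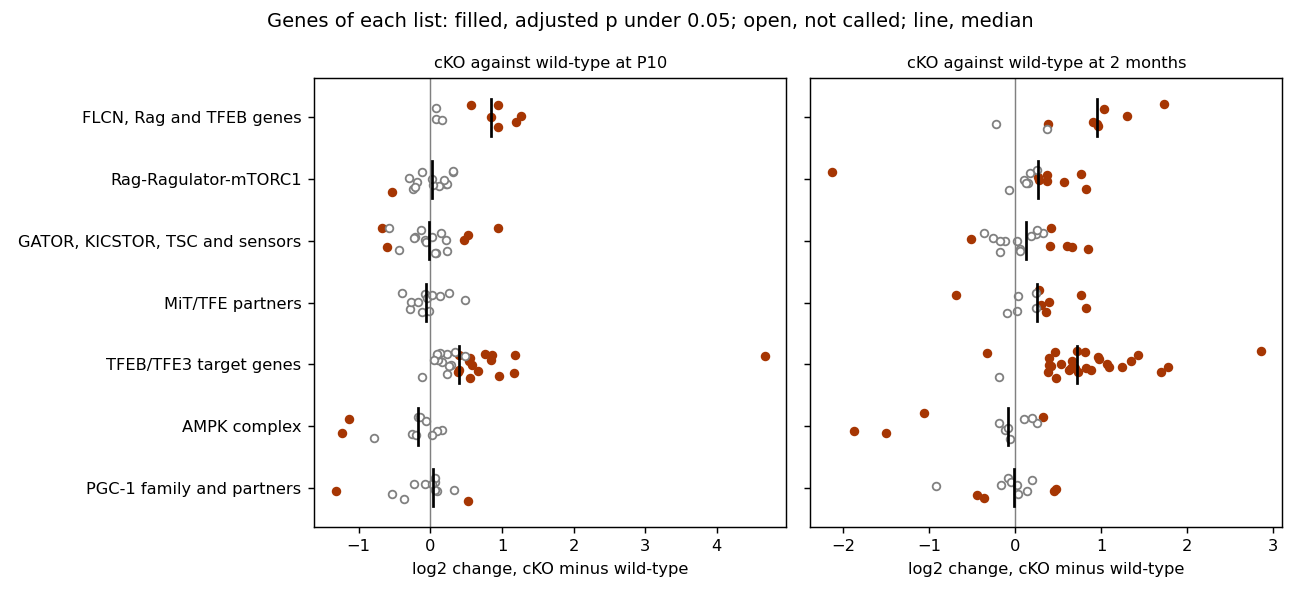
Log2 change in cKO against wild-type nerve (horizontal axes) of each measured gene in 7 lists, at P10 (left) and 2 months (right), filled where the adjusted p was under 0.05, with the list median as a vertical line. The medians of the 9 genes are 0.85 and 0.95 and those of the TFEB and TFE3 targets 0.40 and 0.72; the other 5 lists have medians of -0.17 to 0.04 at P10.

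AMPK is the energy-sensing kinase that is known to act on folliculin-interacting proteins and on PGC-1α. Of 11 genes of the kinase and of the LKB1 complex that activates it, 0 were called higher and 2 lower at P10, with the same counts at an unadjusted limma p under 0.05, and 1 was higher and 3 lower at 2 months. The medians were -0.17 and -0.08. The shares of all genes that rose and fell were 5.48% and 7.44% at P10, then 18.5% and 15.5%. *Prkab2*, a β subunit gene, had log2 changes of -1.13 at P10 (limma adjusted p = 0.000107) and -1.87 at 2 months (adjusted p = 9.8e-08). *Prkag2*, a γ subunit gene, had changes of -1.23 and -1.06 (adjusted p = 2.93e-06 and 1.26e-05). Of the catalytic subunit genes, *Prkaa2* fell at 2 months, from 6.59 ± 0.18 to 5.08 ± 0.43 (adjusted p = 1.61e-05), and *Prkaa1* rose by 0.33 (adjusted p = 0.0079).

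Of 12 measured genes of the relatives and partners of PGC-1α, 1 rose and 1 fell at P10, against 5.48% and 7.44% of all genes, and 2 rose and 2 fell at 2 months, against 18.5% and 15.5%. The medians were 0.04 and -0.02. *Ppargc1b*, the closest relative, had means of 7.46 ± 0.43 and 7.53 ± 0.06 at P10 and 6.95 ± 0.22 and 6.90 ± 0.07 at 2 months. *Sirt1*, a deacetylase gene, rose by 0.52 (limma adjusted p = 0.00893) and *Pparg*, a nuclear receptor gene of fat cells, fell by 1.32 (adjusted p = 0.00245) at P10. At that age 5 of 6 adipocyte markers fell too, and *Adipoq* was at 9.07 ± 0.34 in wild-type and 7.31 ± 0.28 in cKO nerves; the part of fat cell RNA in *Pparg* was not tested. At 2 months *Gabpa* and *Tfb2m*, which serve mitochondrial gene expression, rose by 0.45 and 0.48 (adjusted p = 0.000751 and 0.00665), and the nuclear receptor genes *Ppara* and *Esrrg* had changes of -0.36 and -0.44 (adjusted p = 0.0326 and 0.0385).

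The genes whose pattern lay nearest to that of *Rragd* over the 16 arrays, by the root mean square difference after each gene was centred on its own mean, were *Bhlhe41* (0.42), *Slc16a6* (0.46), *Sytl2* (0.47), *Plekhm2* (0.49) and *Adam23* (0.49). *Bhlhe41*, a transcriptional repressor gene, had means of 6.94 ± 0.42 and 8.37 ± 0.13 at P10 and 7.30 ± 0.49 and 8.49 ± 0.08 at 2 months in wild-type and cKO nerves. *Plekhm2*, whose product links lysosomes to kinesin, had means of 8.74 ± 0.18 and 9.99 ± 0.16 at P10 and 8.65 ± 0.23 and 9.84 ± 0.22 at 2 months. *Slc16a6* had means of 4.79 ± 0.96 and 5.09 ± 0.36 at P10 and 4.30 ± 0.36 and 6.02 ± 0.22 at 2 months. *Sytl2* was at 7.06 ± 0.54 and 8.25 ± 0.05, then at 7.11 ± 0.11 and 9.16 ± 0.21. *Adam23* was at 8.63 ± 0.23 and 10.18 ± 0.35, then at 8.04 ± 0.34 and 9.95 ± 0.10. Without wild-type P10 replicate 4, over 15 arrays, the nearest were *Kcnip3* (0.28), *Dkk3* (0.29), *Cd63* (0.30), *Atp6v1b2* (0.31) and *Bhlhe41* (0.32), so that 1 of the 5 was on both lists. *Atp6v1b2*, a subunit gene of the lysosomal proton pump, went from 8.38 ± 0.21 to 9.75 ± 0.23 at P10 and from 8.36 ± 0.19 to 10.38 ± 0.06 at 2 months. *Cd63*, a tetraspanin gene of late endosomes and lysosomes, went from 10.05 ± 0.26 to 11.74 ± 0.22 and from 10.01 ± 0.34 to 11.87 ± 0.05. *Kcnip3* went from 7.08 ± 0.13 to 8.92 ± 0.23 at P10 and from 6.95 ± 0.37 to 9.03 ± 0.11 at 2 months. For *Dkk3* the steps were from 9.01 ± 0.12 to 10.46 ± 0.16 and from 8.81 ± 0.33 to 10.65 ± 0.07.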

How the data were processed

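Sciatic nerve RNA of wild-type and *Becn1* cKO mice at P10 and 2 months was hybridized to Clariom S arrays, 1 sample an array and 4 arrays a group. The deposited values were made by the authors with the robust multiarray average (RMA) and are log2 levels of 22206 transcript clusters, which were not normalized again. The genome build of the array annotation is not given in the sources used here. The number of arrays limits the precision. Array medians ran from 6.50 to 6.58, and correlations between arrays from 0.976 to 0.994 within and from 0.933 to 0.978 between groups. A symbol was present for 19572 clusters and absent for 2634. Of the resulting 19505 genes, 55 lay on several clusters and took the cluster of highest mean.

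The package limma 3.58.1 of R 4.3.3 was used (lmFit, eBayes with an intensity trend), on the 8 arrays of an age for cKO against wild-type nerve and on all 16 arrays with 4 group means for the change with age and for the interaction of genotype and age. P-values were adjusted by Benjamini-Hochberg over all genes and called under 0.05. The error of a mean is its SD over 4 arrays and that of a change its standard error from limma, and intervals are 95% intervals. The methods of the study used SAM on the 5000 most variable clusters; a SAM-type statistic with the 70 assignments of 4 against 4 arrays stood in for it as an alternative. The others were these 5000 clusters with limma, a filter on dim genes (highest group mean of at least 5), all clusters, all 16 arrays in a single fit, no intensity trend, array weights, centring, a further quantile normalization, the replicate number as a block and leaving out each array. The values without wild-type P10 replicate 4 for the lists and the nearest genes were added after seeing the data. On data simulated for the P10 comparison over 19505 genes, 91 of 100 genes changed by 1 on the log2 scale were recovered and 19 of 100 changed by 0.5. Only these genes were changed there, with independent normal noise, whereas 12.9% of all genes were called at P10 in the data. The adjusted threshold depends on how many genes change, so these rates do not give the power of the real comparison.

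The 9 genes and the lists were chosen with earlier results of these data known, so their counts support nothing beyond the values given. Named are the 9 genes, *Becn1*, *Mitf*, up to 4 called genes with the smallest p in each pathway list and genotype comparison, the 5 genes nearest to the member with the widest range of group means, and defining markers. Listed genes that are not under their symbol in the annotation were not analysed here. Lists of marker genes for endothelial cells, fibroblasts and perineurial cells, T cells, axons and red blood cells were also counted. In cKO nerve, of 6 endothelial markers 6 fell at P10 and 3 at 2 months. Of 5 fibroblast and perineurial markers 0 rose and 2 fell at P10 (0 and 4 without wild-type P10 replicate 4), then 1 rose and 2 fell. Of 4 T cell markers 0 were called at P10, also at an unadjusted p under 0.05, and 3 rose at 2 months. Of 6 axon markers 1 fell at P10 and 4 at 2 months. The 1 measured red blood cell marker fell at 2 months only. Adipocyte markers fell for 5 of 6 genes at both ages.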

Additional observations from a re-analysis of the deposited data

Results flagged for a closer look

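*Rragd* in wild-type P10 replicate 4 read 8.33 on the log2 scale, far from the other 3 arrays of its group at 6.54, 6.31 and 6.33. It was the only such value among 44 gene and group combinations tested, and chance alone sets about 1 in 20 groups apart. The same array had the muscle gene mean of 11.76. Without it the wild-type P10 mean of *Rragd* was 6.39 ± 0.13 (n = 3).

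The cKO change differed between P10 and 2 months for 11 of the 40 named genes, by the interaction term of limma, where 12.3% of all genes were called, and none of the 11 is among the 9 genes. Most of the 40 were named for a small p in the comparison at a single age, a choice that favours a difference between the ages. It was larger at 2 months for the Ragulator genes *Lamtor3* (difference of log2 changes 0.46) and *Lamtor5* (0.63), for *Sec13* of GATOR2 (0.64), for *Ppp3ca* (0.51) and *Ywhag* (0.78), which act on the TFEB-type factors, and for the lysosomal enzyme genes *Hexa* (0.60), *Gla* (0.85) and *Tpp1* (0.48). It was more negative at 2 months for *Deptor* (-1.59) and *Prkab2* (-0.75). For *Gpnmb* the difference was -1.81, since its wild-type level rose from 5.32 ± 0.30 at P10 to 8.42 ± 0.59 at 2 months. Macrophage genes also differed, with 10 of 12 called for a more positive change at 2 months, and their part in these values was not tested.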

How the results depend on the processing

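Of the 9 genes, those called in cKO against wild-type nerve numbered 6 at P10 under every alternative that tested all arrays, and 6 or 7 at 2 months. The 5000 most variable clusters, with limma or the SAM-type test, held 6 of the 9 genes and left *Tfeb*, *Tfe3* and *Tfec* untested. These clusters were chosen by variance over all arrays, to which a cKO difference adds, so calls there are no separate support. Over all genes, the alternatives called 674 to 1339 higher and 1040 to 1703 lower at P10. At 2 months they called 1865 to 3911 higher and 1815 to 3357 lower. The lowest of these counts come from tests of only 5000 clusters and are not out of 19505 genes. Leaving out 1 array gave 5 to 6 at P10, where *Rragd* was the gene lost, and 7 to 8 at 2 months. Over all genes, these fits called 841 to 1014 higher and 1131 to 1532 lower at P10. At 2 months they called 3151 to 3760 higher and 2545 to 2945 lower. Over all genes, the 5000 most variable clusters gave 1865 higher and 1815 lower at 2 months, 1720 and 1618 with age in wild-type and 1844 and 1491 with age in cKO nerve, fewer genes being tested. The SAM-type test called 674 higher at P10 and 2036 at 2 months. For the interaction, 1 of the 9 genes was called with the 5000 clusters, the filter on dim genes and array weights, and 0 to 1 without 1 array. These settings called 1071 of the 5000 clusters, and 1582 and 2030 genes, towards a higher change. Towards a lower change they called 708 of the 5000 clusters, and 932 and 1250 genes. Without 1 array, 1100 to 1659 and 632 to 1009 genes were called. With age in wild-type nerve, 2 were called with the 5000 clusters, which held 6 of the 9, and 3 with centring, quantile normalization and array weights. Over all genes, centring called 2974 higher and 2663 lower, quantile normalization 2868 and 2870, and array weights 2610 and 2954. Without 1 array, 1 to 3 of the 9 were called, where 2376 to 2740 genes were higher and 2560 to 2993 lower. In cKO nerve, 1 to 3 were called without 1 array, where 2695 to 3231 genes were higher and 2213 to 2841 lower. The causes were not tested.

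Changes near 0 turned sign without being called: *Becn1* interaction to -0.01 and *Fnip2* with age in wild-type nerve to 0.00 under quantile normalization, and, under array weights, *Tfec* in wild-type to 0.00 and *Flcn* in cKO nerve to 0.02. Without 1 array the ranges crossed 0 for the *Fnip1* interaction (-0.13 to 0.07), with age in wild-type nerve for *Fnip2* (-0.12 to 0.06), *Tfec* (-0.25 to 0.12), *Rragc* (-0.03 to 0.07), *Tfeb* (-0.13 to 0.05) and *Rragd* (-0.47 to 0.20), the last only without wild-type P10 replicate 4, and with age in cKO nerve for *Flcn* (-0.12 to 0.05) and *Mitf* (-0.05 to 0.20).

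The groups share replicate numbers, and the labels do not say whether these numbers pair the samples. Deviations from the group means correlated between -0.15 and 0.19 in same-number pairs, above 0.1 in 3 of 16. Such correlations over 4 arrays a group cannot show that a pairing is absent. With the replicate number as a block, 6 of the 9 genes were called at P10 and 7 at 2 months, 0 for the interaction, 1 with age in wild-type and 3 in cKO nerve. Over all genes the block called 920 genes higher and 1324 lower in the younger cKO nerves and 3505 and 2954 in the older. The call of *Becn1* was lost at both ages (adjusted p = 0.0781 and 0.0556), and at P10 also with centring (0.0563), quantile normalization (0.0646) and no intensity trend (0.0607). The number of arrays and the unknown background signal limit the dim genes.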
